A study of Mus musculus with 4 samples.

Results

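The genes described here build and run the first part of the secretory pathway: they carry new proteins into the endoplasmic reticulum (ER), fold them there, and load them into COPII vesicles that leave for the Golgi. The rule was on symbols: every gene whose symbol starts with Sec11, Sec13, Sec16, Sec22, Sec23, Sec24, Sec31, Sec61, Sec62, Sec63 or Sar1, the genes Ssr1 to Ssr4, Spcs1 to Spcs3 and Pdia1 to Pdia6, and 12 named chaperone and receptor genes. This gave 49 of the 32200 gene symbols in the deposited tables. All 49 had at least 10 UMIs (unique molecular identifiers, which count captured RNA molecules) over the 4 libraries, as did 23798 genes in all.

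The PIPseq T20 3' capture was run on single cells from the corpus (the main, acid-making part) of the stomach of wild-type C57BL6/J mice aged 6 to 7 weeks. The untreated group received PBS. The other groups received L635, a compound toxic to acid-secreting parietal cells, once by mouth at 350 mg/kg, and were collected at day 1, at day 3, or at day 3 with AREG. AREG is amphiregulin, a ligand of the EGF receptor, and how it was dosed is not stated. Each group is a single library (1 per group), and how many mice went into each is not stated, so no test was possible and no difference has a replicate check. Where 4 values stand together, they run from untreated through day 1 and day 3 to AREG.

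A protein made for secretion enters the ER through the Sec61 channel while it is being translated, and the signal peptidase cuts off its leading peptide. Inside, the chaperone BiP (Hspa5) and its relatives hold the chain, the lectins calreticulin and calnexin hold its sugar-bearing stretches, and protein disulfide isomerases form its disulfide bonds. Finished proteins are packed by the COPII coat, and KDEL receptors return escaped chaperones. In the corpus, chief cells secrete digestive enzymes in large amounts, neck and pit cells secrete mucins and trefoil factors, and parietal cells secrete acid.

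Promoter sequence was looked up because many folding genes are known to share one control element, the ER stress response element (ERSE), through which the factors ATF6 and XBP1 act. RefSeq promoters of build GRCm38.p6 (250 bases before to 50 bases after the start) matched 42 of the 49 genes by symbol. Hyou1, Kdelr2, Manf, Sec11c, Sec61a1, Spcs3 and Ssr2 had no entry. The ERSE was searched on both strands as CCAAT, any 9 bases, then CCACG, and was found in 6 of the 42, and in 0.137% of all 27025 genes with a promoter. The shorter ERSE-II, ATTGG, any 1 base, then CCACG, was in Dnajb11 alone, against 0.0444% of all genes. The letters TGACGTGG, a core bound by XBP1, were in Sec16b, Sec23a and Sec24d, against 0.714% of all genes. A match is only a run of letters and does not show that a factor binds there.

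The 7 ERSE stretches follow with up to 20 bases on each side, 5′ to 3′ on the gene's strand, the fixed letters of the element in capitals; they are shown because their genes, Hspa5, Calr, Hsp90b1 (which has a pair of them), Canx, Pdia6 and Creld2, differed in their day 1 ratios, given further on. In Calr, Creld2 and the second Hsp90b1 stretch the element lies on the opposite strand and reads CGTGG first.
Hspa5, chr2:34772005-34772063, plus strand: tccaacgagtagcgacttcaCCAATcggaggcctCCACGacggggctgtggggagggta
Calr, chr8:84847055-84847113, minus strand: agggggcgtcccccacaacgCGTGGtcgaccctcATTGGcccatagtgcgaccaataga
Hsp90b1, chr10:86705618-86705676, minus strand: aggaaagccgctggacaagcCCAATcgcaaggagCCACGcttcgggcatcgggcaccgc
Hsp90b1, chr10:86705513-86705571, minus strand: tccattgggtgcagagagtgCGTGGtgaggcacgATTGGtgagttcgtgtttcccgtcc
Canx, chr11:50325780-50325838, minus strand: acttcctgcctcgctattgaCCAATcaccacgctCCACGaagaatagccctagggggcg
Pdia6, chr12:17266471-17266529, plus strand: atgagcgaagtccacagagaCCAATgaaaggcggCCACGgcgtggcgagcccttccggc
Creld2, chr15:88819500-88819558, plus strand: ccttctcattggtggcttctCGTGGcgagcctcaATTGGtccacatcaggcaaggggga

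The gene with the largest difference in the group, Pdia2, has no ERSE in its promoter. The 250 bases before its start are printed for comparison, with the 5-letter half-site CCACG on either strand in capitals, which overlap here. That half-site alone is common, in 35.5% of all genes with a promoter and in 30 of the 42.
Pdia2, chr17:26199088-26199337, minus strand: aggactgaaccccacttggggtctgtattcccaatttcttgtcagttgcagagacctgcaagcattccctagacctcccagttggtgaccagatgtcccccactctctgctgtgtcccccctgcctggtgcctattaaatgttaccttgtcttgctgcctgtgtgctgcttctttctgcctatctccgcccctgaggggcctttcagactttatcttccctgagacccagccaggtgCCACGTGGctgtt

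Epithelial cells numbered 13858, 3743, 7966 and 12911, with 61475891, 38673758, 41965112 and 51868327 UMIs and medians of 2506 to 3011 UMIs per cell. In these cells the summed level of 15 pit markers was 145718 to 185436 CPM (UMIs per 1e6 UMIs) across libraries. That of 15 parietal markers was 4701 to 15837 CPM. In the same cells 8 fibroblast markers summed to at most 2.91 CPM and 8 endothelial markers to at most 52.1 CPM. The epithelial cells were themselves chosen through marker-named clusters, with an endothelial cluster left out. These sums therefore describe the chosen cells and cannot check the labelled tissue. A total of 8 cell barcodes were shared by any pair of libraries. The day 1 library stood apart in that its parietal-like and pit-like cells lay almost wholly in clusters of that library alone, which may be the library rather than a cell type. A further 1758 of its epithelial cells (47.0%) formed a cluster led by Msln and Krt7 that is left unnamed. Its best match was the list of proliferation markers, and none of its 10 leading genes is on that list. All 18 markers of that list were at least 2-fold higher in the resolution 2 cluster behind it than in clusters with another best match. The rule that leaves it unnamed was set after seeing the clusters. The 49 genes made up 0.571% of the UMIs of this Msln-led cluster. The library also held 90 chief-like cells, against 3077, 758 and 1202 in the others.

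Together the 49 genes made up 0.578%, 0.540%, 0.565% and 0.585% of epithelial UMIs. The summed share was thus nearly level across injury and recovery, with day 1 the lowest. In barcodes with under 50 UMIs, which hold free RNA, the share was 0.520%, 0.513%, 0.547% and 0.552%, close to the share in cells. The 10 genes of highest mean level were P4hb, Calr, Pdia2, Hspa5, Hsp90b1, Sec61b, Pdia3, Ssr4, Sec61g and Canx; a 3' capture gives 1 tag per molecule, levels were not scaled by length, and no level is compared between genes.

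Day 1 was compared with untreated to describe the acute injury. Log2 ratios are of CPM + 1 and a difference was called at 2-fold or more. The COPII genes were mostly higher at day 1, the signal peptidase genes mostly lower, the main chaperones nearly level, and Pdia2 and Creld2 far lower. Of the 49 genes, 4 were called higher, where 11.8% of all genes were, and 2 were called lower, where 1.71% of all genes were. The median log2 ratio was 0.18, and 0.16 over all genes. Among the 28 of the 49 genes that reached 50 CPM in either library the median was -0.01, and among the 2440 genes of all kinds that did it was 0.49.

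These directions depend on what the levels are divided by. Mitochondrial genes, ribosomal protein genes and the 20 most abundant other genes took 56.7% of untreated and 45.4% of day 1 epithelial UMIs. With those left out of the total, 1 of the 49 genes was called higher and 4 lower, the median was -0.15, and the summed share was 1.33%, 0.989%, 1.04% and 1.09%. Over all genes the calls were 2802 higher and 408 lower with every UMI in the total, and 1676 and 885 with the reduced total. Under both totals, 23 of the 49 genes were above 0 and 16 below, and the other 10 differed in sign.

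**Figure D1:**
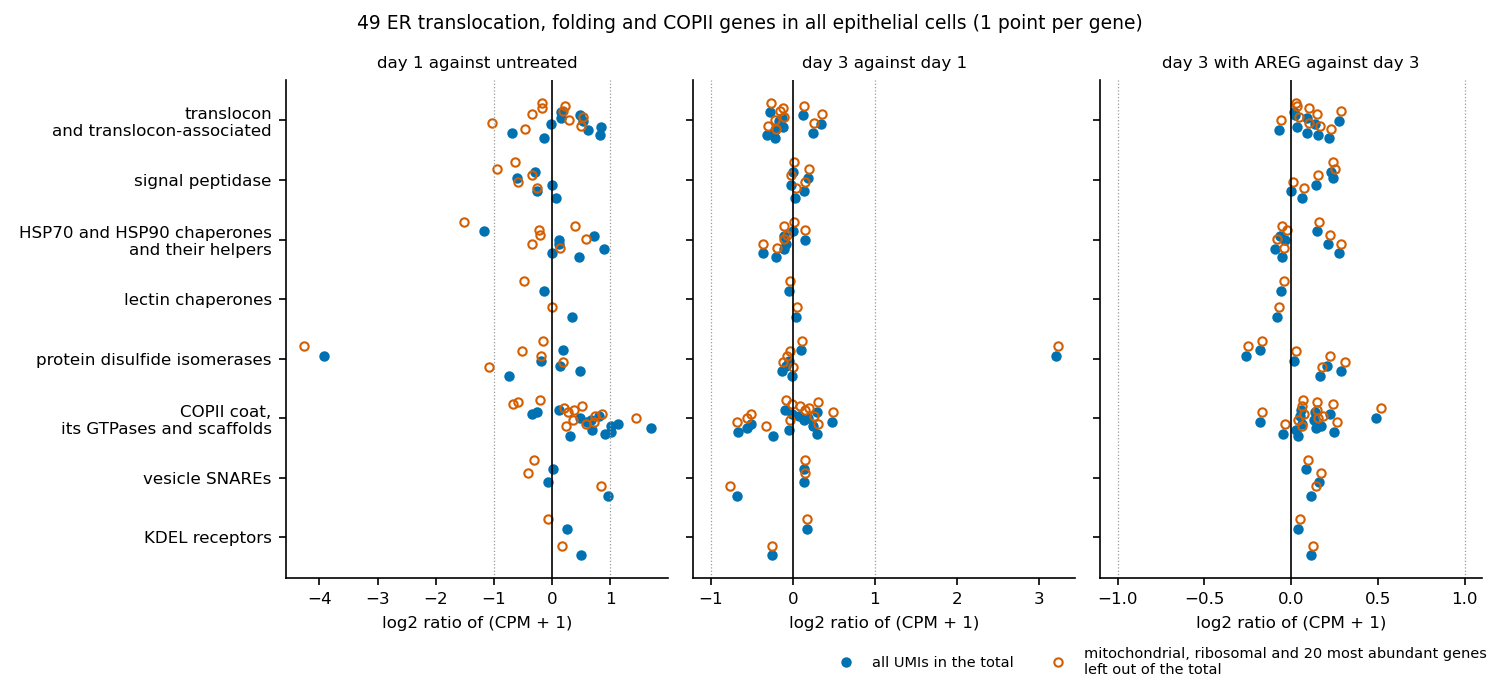
Log2 ratio of CPM + 1 for each of the 49 genes (points), by role, in 3 comparisons over all epithelial cells. Filled points use all UMIs as the total and open points the reduced total. In the day 1 comparison Pdia2 lies far to the left at -3.92 and the COPII genes lie mostly to the right (12 of 14 above 0); with AREG no gene reaches a 2-fold difference (dotted lines).

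The COPII coat, its GTPases and scaffolds had the largest share of genes above 0 among the larger roles at day 1, 12 of 14 (11 of 14 with the reduced total), with a median log2 ratio of 0.68 (0.37). All 4 genes called higher were of this role: Sec24b at 1.69, Sec23ip at 1.14, Sec24a at 1.01 and Sec24d at 1.01. SEC24 proteins select the cargo. Sec24b was at 6.96, 24.7, 16.5 and 18.3 CPM, and all 3 injured libraries lay above the untreated one. Of these 4 genes, only Sec24b passed 2-fold with the reduced total, at 1.44. Each of the 4 was under 25 CPM in every library.

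Sec31a and Sec23b are better measured. Sec31a, a subunit of the outer COPII cage, was at 25.3, 48.2, 59.4 and 57.4 CPM. Its log2 ratio at day 1 was 0.90 (0.59 with the reduced total), and at day 3 against untreated it was 1.20 (0.89). Sec23b, of the inner coat, was at 37.7, 57.4, 80.2 and 70.7 CPM, with 0.59 (0.27) at day 1 and 1.07 (0.76) at day 3 against untreated. Both were thus higher in each injured library than in the untreated one, and highest at day 3. Sar1b, one of the GTPases that start the coat, went the other way at day 1, at 63.3, 52.7, 64.7 and 71.2 CPM, and so did Sec13, which is shared by the cage and the nuclear pore, at 82.6, 64.9, 64.3 and 75.4 CPM.

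Among the translocon and translocon-associated genes, 7 of 10 were above 0 at day 1 (5 with the reduced total), none reached 2-fold with every UMI in the total, and the members of one complex went apart. The TRAP complex, which sits beside the Sec61 channel, has its subunits from Ssr1 to Ssr4. Ssr3 was at 76.5, 135, 109 and 122 CPM, a log2 ratio of 0.81 at day 1 (0.49), and Ssr1 at 64.1, 98.9, 84.9 and 80.9 CPM, a ratio of 0.62 (0.29). Ssr2 was at 216, 133, 158 and 168 CPM, a ratio of -0.70 (-1.03), and Ssr4 at 327, 297, 256 and 298 CPM, a ratio of -0.14 (-0.47). Ssr1 and Ssr3 were thus higher and Ssr2 and Ssr4 lower at day 1 under both totals. Of the channel itself, Sec61g was at 218, 314, 280 and 339 CPM (0.52 and 0.19), while Sec61b was at 287, 319, 292 and 311 CPM and had ratios of opposite sign under the totals (0.15 and -0.18).

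All 5 signal peptidase genes were lower at day 1 with the reduced total, and 4 of 5 with every UMI in the total, with medians of -0.59 and -0.26. Sec11c, one of the catalytic subunits, was at 175, 115, 130 and 154 CPM, the largest difference of the 5 at -0.61 (-0.95). Sec11a, another catalytic subunit, was at 81.2, 65.8, 66.1 and 77.6 CPM. In both, the AREG library lay nearer to untreated than the other injured libraries did.

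The chaperones were close to level. Hspa5, the ER HSP70, was at 295, 321, 304 and 352 CPM, and Hsp90b1, the ER HSP90, at 285, 308, 340 and 333 CPM, with day 1 ratios of 0.12 (-0.21) and 0.11 (-0.22). Calr was at 439, 397, 386 and 371 CPM and Canx at 177, 223, 229 and 217 CPM. The day 1 ratios of the ERSE genes printed above ran from 0.33 for Canx to -1.17 for Creld2. With the reduced total 5 of the 6 were below 0 (Hspa5 -0.21, Hsp90b1 -0.22, Calr -0.48, Pdia6 -1.08 and Creld2 -1.51) and Canx was at 0.00, so whether they share a direction depends on the total.

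Creld2, an ER protein made under ER stress that takes part in disulfide handling, was at 84.1, 36.8, 36.8 and 40.9 CPM, or 2.25-fold lower at day 1, and was at a like level at day 3 and with AREG. Pdia6, a disulfide isomerase that acts with BiP, was at 226, 134, 133 and 150 CPM, with -0.75 at day 1 (-1.08). The untreated library was above the 3 injured ones for both. Less abundant helpers were higher at day 1 under both totals: Hyou1, a nucleotide exchange factor of BiP, was at 20.5, 38.9, 36.0 and 33.6 CPM, and Dnajb11, a BiP co-chaperone, at 25.7, 42.8, 39.6 and 37.8 CPM.

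Of the KDEL receptors, Kdelr2 was higher at day 1 under both totals, at 122, 173, 145 and 156 CPM (0.50, and 0.17 with the reduced total). Kdelr1 was at 110.5, 132, 149 and 153 CPM and had ratios of opposite sign under the totals (0.26 and -0.07). Of the vesicle SNAREs, which serve fusion between ER and Golgi, Sec22b was at 40.6, 38.4, 42.2 and 47.2 CPM and near level. Sar1a and Sar1b, and Sec61a1 and Sec61a2, are close copies of each other, and how reads that fit both were counted is not stated.

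**Figure D2:**
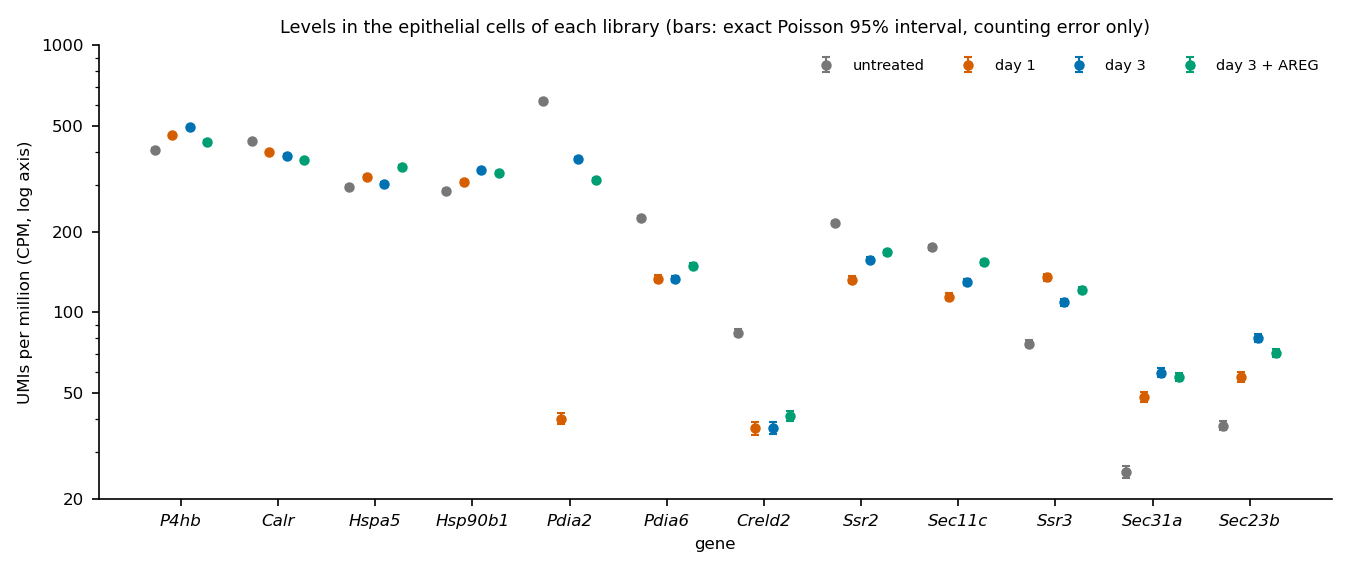
CPM on a log axis of 12 of the genes in the epithelial cells of each library, with exact Poisson 95% intervals that cover counting error only. Pdia2 is at 622 untreated and 40.03 at day 1, Creld2 and Pdia6 are lower in all injured libraries, and Sec31a and Sec23b are higher in them.

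Pdia2, a protein disulfide isomerase known from the pancreas, had the largest difference of the 49 genes. It was at 622 CPM in the untreated library (95% interval 616 to 628), 40.03 at day 1 (38.1 to 42.1), 377 at day 3 (371 to 383) and 314 with AREG (309 to 319). The untreated level was 15.2-fold the day 1 level, a log2 ratio of -3.92 at day 1, and day 3 was 9.22-fold above day 1. With every UMI in the total no other disulfide isomerase of the group was called at day 1, while Pdia6 passed 2-fold lower with the reduced total. P4hb, which also serves collagen prolyl hydroxylase, was at 407, 461, 494 and 436 CPM. Pdia3, which works with the lectins, was at 330, 291, 282 and 285 CPM.

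Among classes with at least 100 cells, Pdia2 was highest in chief-like cells in each library where they could be measured, at 1571, 1180 and 948 CPM in the untreated, day 3 and AREG libraries, and chief-like cells were 22.2%, 2.40%, 9.52% and 9.31% of epithelial cells. In sums over all epithelial cells, fewer cells of a type and less RNA per cell cannot be told apart, and the part of the chief-like share in the Pdia2 difference was not tested. The level also differed within other classes. In parietal-like cells it was at 834, 202, 561 and 537 CPM, a log2 ratio at day 1 of -2.04 with a counting interval, without the pseudocount, of -2.16 to -1.93. In pit-like cells it was at 38.2, 5.12, 27.4 and 33.7 CPM. In both classes the day 1 level was the lowest of the 4, and the day 3 levels lay between it and untreated. The day 1 cells of both classes lay mostly in other clusters than the untreated ones. Barcodes with under 50 UMIs held Pdia2 at 558, 45.9, 400 and 340 CPM, in the same order of libraries as all epithelial cells. The pit-like levels were lower than these and, like them, lowest at day 1. How much of the pit-like level is free RNA was not tested.

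Day 3 was compared with day 1 to describe recovery. Pdia2 was the only one of the 49 genes called higher, where 3.1% of all genes were, and none was called lower, where 3.36% of all genes were. The median log2 ratio was -0.03, and 0.05 over all genes. After Pdia2, the highest ratios among genes at 50 CPM or more were those of Sec23b (0.48), Sec62 (0.34), Sec31a (0.30) and Sar1b (0.29). Sec62, which helps short precursors into the channel and also marks ER for turnover, was at 118, 116, 147 and 162 CPM, higher in both day 3 libraries than in the earlier ones. Sec61a1, the pore subunit of the channel, was among the lowest at -0.27, with 127, 141, 117 and 118 CPM. The lowest was Manf, a secreted ER stress protein, at -0.37, with 133, 132, 102 and 124 CPM.

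At day 3 against untreated, 4 of the 49 genes were called higher (Sec23b, Sec24a, Sec24b and Sec31a; 9.43% of all genes) and Creld2 was called lower (0.849%). With AREG against untreated the counts were again 4 (8.32%) and 1 (0.773%). The medians were 0.26 and 0.25. These comparisons share the untreated library with the day 1 comparison and are not independent of it.

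AREG was compared with day 3 alone. None of the 49 genes was called in either direction, where 0.0462% of all genes were called higher and 0.206% lower. Over all epithelial cells the differences were small and mostly upward: 37 of 49 were above 0, with a median of 0.09 and a range of -0.26 to 0.49, and the median over all genes was -0.02. The largest among genes at 50 CPM or more were Sec61g (0.28), Manf (0.27), Sec11c (0.24), Sec11a (0.23) and Sec13 (0.23), and the lowest were Pdia2 (-0.26), P4hb (-0.18) and Sec23b (-0.18). With the reduced total, 38 of 49 were above 0.

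Cells were next divided into classes by clusters built without the ER genes, named from markers and called "like" for that reason. The 49 genes made up 0.499%, 0.505%, 0.434% and 0.460% of UMIs in pit-like cells, the lowest class in the untreated, day 3 and AREG libraries. Parietal-like cells gave 0.580%, 0.462%, 0.596% and 0.565% and were the lowest class at day 1. With the reduced total parietal-like cells were the lowest class in all 4 libraries, at 0.894%, 0.689%, 0.888% and 0.863%. Chief-like cells gave 0.665%, 0.748% and 0.789% in the untreated, day 3 and AREG libraries, and neck-like cells 0.833% and 0.883% at day 3 and with AREG. Classes with under 100 cells in a library (neck-like untreated and at day 1, chief-like at day 1) are not given there.

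At the level of single genes, the mucous neck-like class was the highest of 5 classes for 33 of 49 genes at day 3 and for 28.9% of all genes; endocrine-like cells, under 100 at day 3, were not among the 5. With AREG, where endocrine-like cells could be compared, they were highest for 25 of 49 genes (27.3% of all genes) and neck-like cells for 18 (18.5%). In the untreated library only 4 of 49 genes (Pdia2, Creld2, Ssr4 and Sec16b) were highest in the enzyme-secreting chief-like cells, where 15.1% of all genes were. Tuft-like cells were highest for 22 (25.6% of all genes) and endocrine-like cells for 14 (20.4%). Some tuft-like levels rest on few UMIs, such as 2 for Sec22c and 3 for Sec24a. With at least 1000 UMIs per cell the tuft-like class was too small to compare, and endocrine-like cells were highest for 25. With classes at resolution 2 the counts were 18 for tuft-like, 14 for neck-like and 10 for endocrine-like cells. The genes left out of the reduced total held 70.4% of the UMIs of chief-like cells in the untreated library, against 35.1% in parietal-like cells and 33.9% in tuft-like cells. With these left out of the total, 23 of 49 genes were highest in chief-like cells (30.3% of all genes), and the summed share was 2.24% there, 1.26% in pit-like, 0.894% in parietal-like and 1.26% in tuft-like cells. Chief-like cells then also lay above neck-like cells, at 2.0% and 1.48% at day 3 and at 2.13% and 1.63% with AREG.

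**Figure D3:**
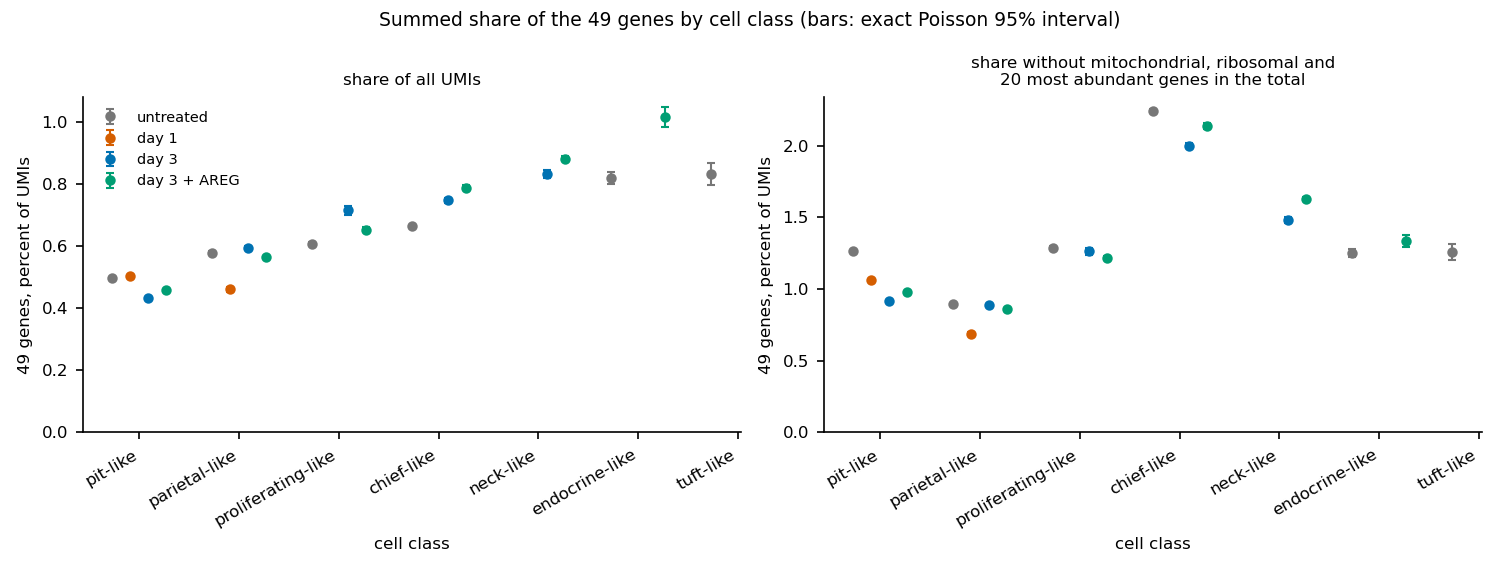
Summed share of the 49 genes in percent of UMIs by class and library, with exact Poisson 95% intervals, over all UMIs (left) and over the reduced total (right). Untreated chief-like cells lie at 0.665% on the left, below endocrine-like and tuft-like cells, and at 2.24% on the right, the highest point.

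The chief-like class held different clusters in different libraries. Untreated, 1880 of its cells formed a cluster led by Pga5 and Cblif that also carried Gkn3, A4gnt and Agr2, and 1088 a cluster led by Chia1 and Pla2g1b. At day 3 the Chia1-led cluster had 289 cells and a cluster led by Gkn3 and Pnliprp2 had 436. The 49 genes made up 0.874% of UMIs in the Pga5-led cluster, 0.964% at day 3 in the Gkn3-led one, and 0.502%, 0.584% and 0.628% in the Chia1-led one (untreated, day 3 and AREG). Among chief-like cells the clusters with neck genes thus had the larger share. With the reduced total the order turned for the untreated library, at 1.87% in the Pga5-led and 3.36% in the Chia1-led cluster. The Gkn3-led and Chia1-led clusters were then nearly level, at 1.99% and 2.02% at day 3 and at 2.143% and 2.162% with AREG.

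Within classes, Sec31a and Sec23b were higher at day 3 than untreated in each of the 4 classes that could be compared, under both totals. For Sec31a the log2 ratios were 1.83 in chief-like (1.54 with the reduced total), 1.44 in proliferating-like (1.21), 0.80 in parietal-like (0.75) and 0.69 in pit-like cells (0.45). For Sec23b they were 1.54 (1.24), 0.74 (0.49), 0.52 (0.47) and 0.97 (0.73). Parietal-like and pit-like cells lay in different clusters in these libraries. Of untreated parietal-like cells 3381 and 573 were in clusters led by Apoa1, and of those at day 3 1802 in one led by Atp4b and Tnni3. Of untreated pit-like cells 3137 were in a cluster led by Lypd8l and Ces2c and 1122 in one led by Gkn2 and Gkn1, and of those at day 3 2864 in one led by Lypd8. Within the 5 of these and other pit-like and parietal-like clusters that had 100 cells in both libraries, the ratios ran from 0.29 to 1.07 for Sec31a and from 0.10 to 0.74 for Sec23b, with counting intervals that hold 0 in 2 and in 4 of the 5. The Sec23b difference in pit-like cells was thus smaller within each cluster (0.10, 0.39 and 0.55) than over the class. In chief-like cells Sec31a was at 16.6, 61.7 and 57.8 CPM in the untreated, day 3 and AREG libraries. Over all members in chief-like cells, 12 of 48 were called higher at day 3 (7 with the reduced total), where 18.7% of all genes were, and none was called lower, where 1.34% were (Creld2 with the reduced total). The reduced total moved the median of all genes in this class from 0.37 to 0.14 and that of the members from 0.45 to 0.17.

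Creld2 was highest in chief-like cells, at 203, 112 and 125 CPM in the untreated, day 3 and AREG libraries, and was lower at day 3 than untreated there (-0.86), in pit-like (-0.78) and in parietal-like cells (-0.67; -0.14 and -0.52 within the 2 clusters compared), but not in proliferating-like cells (0.35, with a counting interval of 0.01 to 0.68). Pdia6 was lower in pit-like cells at day 3, from 197 to 91.1 CPM (-1.10), and by less in chief-like (-0.35) and parietal-like cells (-0.20). The Gkn2-led cluster, with 343 CPM of Pdia6 untreated, held 1122 untreated and 95 day 3 cells, and within the other 3 pit-like clusters compared the ratios were -0.38, -0.77 and -0.43. Whether the classes differ was not tested.

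**Figure D4:**
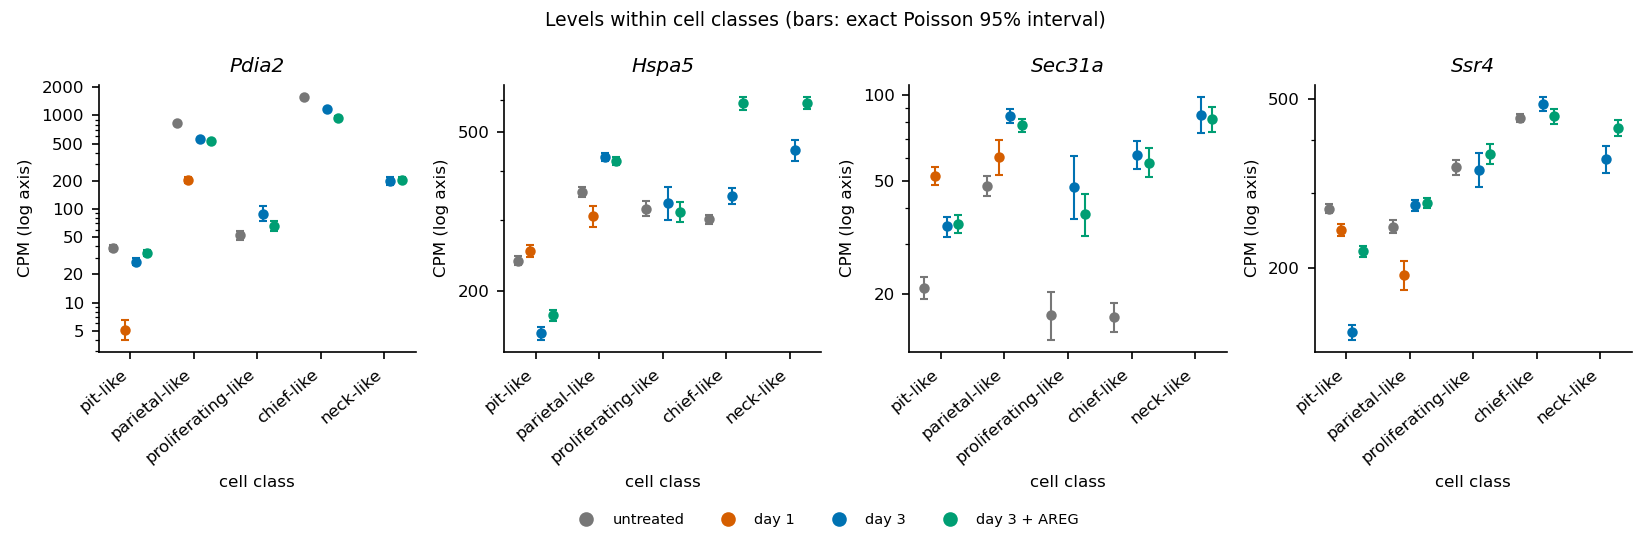
CPM on log axes of Pdia2, Hspa5, Sec31a and Ssr4 in 5 classes and up to 4 libraries, with exact Poisson 95% intervals; the vertical scales differ. Hspa5 is higher with AREG than at day 3 in chief-like (590 and 346) and neck-like cells (591 and 449) and level in parietal-like cells (422 and 432).

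At day 1, pit-like cells could be compared with untreated only across clusters, since those of day 1 lay in a cluster led by Rep15 and Muc5ac. Ssr2 (-0.95), Sec11c (-0.86) and Pdia6 (-0.77) were the 3 lowest of the genes at 50 CPM or more there, and Sec31a and Ssr3 were higher. In pit-like cells 8 of 49 genes were called higher, where 15% of all genes were, and 1 lower, where 2.0% were; with the reduced total the counts were 3 and 6. In parietal-like cells none was higher (11.7%) and only Pdia2 was lower (3.44%). The parietal-like ratios are across clusters too, since a cluster led by Obp2a held 252 day 1 and 0 untreated cells.

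From day 1 to day 3, translocon genes had ratios of different sign in different classes, a contrast that was not tested. These ratios are across clusters. The Rep15-led pit-like cluster held 1419 day 1 and 27 day 3 cells, and the Lypd8-led one 20 and 2864. The Obp2a-led parietal-like cluster held 252 and 2, and the Atp4b-led one 12 and 1802. In pit-like cells Sec61g was at 326 CPM at day 1 and 175 at day 3 (-0.90), Ssr4 at 245 and 141 (-0.80) and Sec61b at 327 and 199.9 (-0.71). In parietal-like cells the ratios of the same 3 genes were 0.33, 0.55 and 0.48. Pit-like cells were 40.1% of day 1 and 55.9% of day 3 epithelial cells, and over all epithelial cells the 3 genes differed by -0.16, -0.21 and -0.13. In pit-like cells 1 of 48 genes was called higher (3.95% of all genes) and Sec24d lower (1.58%). In parietal-like cells 1 of 49 was called higher (5.66%) and none lower (8.91%). The gene called higher was Pdia2 in both classes.

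AREG was also compared with day 3 within classes, where Hspa5 in chief-like cells had the largest ratio among genes at 50 CPM or more. In chief-like cells it was at 346 CPM at day 3 and 590 with AREG, a log2 ratio of 0.77 with a counting interval of 0.69 to 0.86. In neck-like cells it was at 449 and 591 (0.39, interval 0.29 to 0.50), in pit-like cells at 156 and 173 (0.15), in parietal-like cells at 432 and 422 (-0.03) and in proliferating-like cells at 332 and 314 (-0.08). It was thus higher with AREG in chief-like and neck-like cells and nearly level in the others. Whether the classes differ was not tested, and with 1 library each, AREG and the library cannot be told apart.

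Within chief-like cells the Hspa5 difference was larger in the Chia1-led cluster, from 231 to 492 CPM (1.09, interval 0.96 to 1.23), than in the Gkn3-led one, from 495 to 680.5 (0.46). The untreated Chia1-led cells had 116 CPM, but the genes left out of the reduced total held 85.1% of their UMIs, against 71.0% at day 3. With the reduced total the Hspa5 ratio in this cluster was 0.03 at day 3 against untreated. It was 1.09 with AREG against day 3. In the Chia1-led cluster the deepest single cell gave 4.25% of Hspa5 UMIs at day 3 and 3.00% with AREG. Some other folding genes were higher there too: Manf at 74.1 and 131 CPM (0.81), Pdia4, a large disulfide isomerase, at 21.3 and 47.8 (1.13), Hsp90b1 at 227 and 345 (0.60) and Calr at 192 and 277 (0.53). Not all were: with the reduced total Creld2 was at 0.05, Canx at -0.02, Pdia5 at -0.22 and Pdia2 at -0.28. Hyou1, Sdf2l1, Pdia3, Dnajb11 and Pdia6 lay between, from 0.29 to 0.37. On the same reduced total the translocon subunit Sec61g (0.02), the coat gene Sec23b (0.08) and P4hb (-0.01) were near 0 and Ssr4 was at -0.21. Of 48 genes in this cluster 3 were called higher, Hspa5, Pdia4 and Sec22a, where 2.74% of all genes were, and none lower, where 2.5% were. The cluster was looked at because of these values, so they are a description.

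Over the whole chief-like class, 34 of 48 genes were above 0 with AREG (median 0.12; all genes 0.03), and none was called (0.768% of all genes higher, 1.45% lower). Neck-like cells gave 35 of 49 (median 0.09; all genes -0.07), with Manf highest at 0.51, from 146 to 208 CPM. Pit-like cells gave 32 of 48 (0.12; all genes -0.03), led by Ssr4, from 141 to 219 CPM (0.63), and Sec61g, from 175 to 263 (0.59), the genes that were lower there at day 3 than at day 1. The clusters of this class differ between the libraries: the Lypd8-led one held 2864 of 4449 cells at day 3 and 2629 of 6055 with AREG, and one led by Mt2 and Gsta3 held 101 and 901. Within the 4 pit-like clusters compared the ratios were smaller, 0.57, 0.05, 0.13 and 0.40 for Ssr4 and 0.32, 0.45, 0.26 and 0.34 for Sec61g, and the summed share went from 0.410% to 0.383% in the Lypd8-led cluster and from 0.615% to 0.630% in the Mt2-led one. Parietal-like cells gave 16 of 49 (-0.04; all genes -0.01), and proliferating-like cells 14 of 48 (-0.14; all genes -0.08). None was called in these 4 classes either. Of all genes, 1.25% were called higher and 2.36% lower in neck-like, 0.364% and 0.608% in pit-like, 0.077% and 0.213% in parietal-like, and 2.48% and 2.52% in proliferating-like cells.

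**Figure D5:**
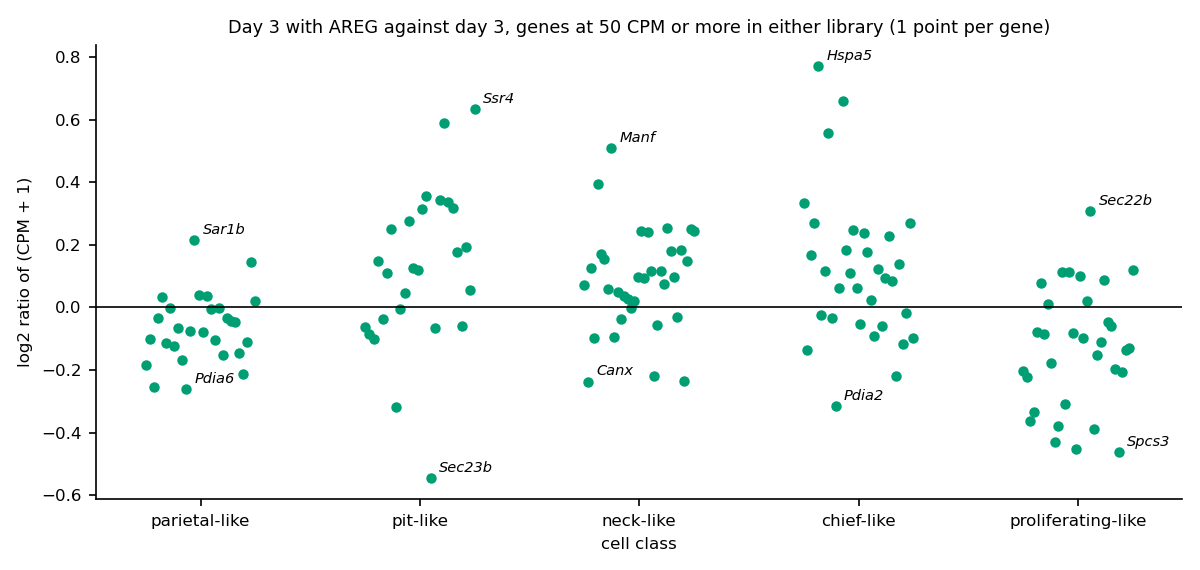
Log2 ratio of CPM + 1 of day 3 with AREG against day 3 for each of the genes at 50 CPM or more in either library (points), by class; the highest and lowest gene of each class are named. Hspa5 is highest in chief-like cells at 0.77, Ssr4 in pit-like cells at 0.63 and Manf in neck-like cells at 0.51.

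Related genes from 8 lists were set beside the 49. Their ratios use every UMI in the total and were not computed with the reduced total, with which day 1 ratios are lower. Whether a list was above 0 at day 1 may thus depend on the total, and its median stands beside the day 1 median over all genes given above. At day 1 all 10 genes of the signal recognition particle and its receptor, which bring ribosomes to the channel, were above 0 with a median of 0.38, and 6 of 12 oligosaccharyltransferase genes, which attach sugars, with -0.02. The COPI coat, which carries proteins back to the ER, had 11 of 14 above 0 and a median of 0.45, with Arcn1 at 39.9, 119, 109 and 93.3 CPM (1.56). ER-associated degradation genes had 14 of 19 (0.38) and other folding helpers 21 of 37 (0.12). Agr2, a disulfide isomerase of mucous cells, was at 1490.0, 373, 911 and 895 CPM (-1.99 at day 1). ER exit cargo receptors had 12 of 25 (-0.02), and among them Tmed6 was lowest, with 209, 21.3, 158 and 124 CPM, and a day 1 ratio of -3.23. Tmed6 is among the 10 leading genes of the Chia1-led chief-like cluster, and Agr2 of the Pga5-led one. Those clusters held 1088 and 1880 untreated cells and 9 and 3 day 1 cells. The part of the chief-like share in these differences was not tested. Mia2 and Mia3, which help load large cargo into COPII vesicles, were higher at day 1 (1.21 and 1.24).

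Of 16 sensors and factors of the unfolded protein response, 10 were above 0 at day 1 (median 0.40). Atf4, the translation-controlled factor of that response, was at 68.6, 158, 136 and 138 CPM (1.19), while Creb3l4, a related membrane-bound factor, was at 41.6, 14.1, 29.9 and 42.5 CPM (-1.50). Creb3l4, too, is among the leading genes of the Pga5-led chief-like cluster, and the part of the chief-like share was not tested. Secreted products had the largest differences: 4 of 18 were above 0 at day 1 (median -1.23) and 14 of 18 at day 3 against day 1 (1.13), and Pla2g1b, a phospholipase of chief cells, was at 38040, 1075, 11083 and 8248 CPM. With AREG against day 3 the list medians lay between -0.22 for the secreted products and 0.11 for the unfolded protein response. None of the other 7 lists had a gene called there, and Gkn3 was the secreted product called lower, at -1.06.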

How the data were processed

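The deposited tables hold raw UMI counts per gene and cell barcode, which the authors did not normalise, per the file values. The submitters' processing notes name the build GRCm39 (mm39); aligner and counter: not given in the sources used here. Cells had at least 500 UMIs, 200 genes and at most 50% mitochondrial UMIs. Scrublet marked at most 0.187% of cells, so it was taken not to have worked and doublets may remain. Cells were clustered (scanpy 1.11.5, leidenalg 0.10.2, Python 3.11.15, scipy 1.17.1) on 2000 variable genes and 40 components without the ER genes. Clusters whose best marker scores differed by less than 0.6, a gap set after seeing those scores, were split at resolution 2, and a cluster with no own marker among its 10 leading genes stays unnamed, a rule also set after seeing the clusters.

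Counts were summed over epithelial cells or a class, divided by all UMIs as CPM, and compared as log2 ratios of CPM + 1. Intervals (95%, exact Poisson for levels, exact binomial for ratios without the pseudocount) cover counting error only. Genes needed 10 UMIs over the 4 libraries and classes 100 cells. Values are given for the 5 highest and lowest ratios per comparison at 50 CPM or more, 3 per class, and the 10 highest mean levels. Other genes were chosen after their values were seen. The ratio code was tested on simulated data. The genes, the lists and the markers were chosen with earlier results of these data known.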

Additional observations from a re-analysis of the deposited data

How the results depend on the processing

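The total used for CPM had the largest effect. At day 1 against untreated, the reduced total of the report, without mitochondrial and ribosomal protein genes and the top 20 others, moved the median of the 49 genes from 0.18 to -0.15, the count called higher from 4 to 1 and the count called lower from 2 to 4. A pseudocount of 10 CPM gave a median of 0.15 and 1 gene called higher, and leaving out the deepest 1% of cells gave a median of 0.21. Without the unnamed cells, among them the Msln-led cluster of day 1, the median was 0.0352, and 0.0836 at day 3 against day 1 in place of -0.03. The count of genes highest in untreated chief-like cells went from 4 to 23 with the reduced total, an alternative chosen after seeing the data. Of 1326 values of single genes under alternatives, 1173 stayed within the counting interval, 153 moved and 0 reversed a called direction. Only the few genes called at 2-fold could be counted as reversed, so that 0 says little about the rest. Of the 1326 values, 1276 kept the sign of the main value. No paired analysis was possible because each group has 1 library. Depth limits the genes under 25 CPM most, and with 1 library per group no spread between animals is known.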
